A study of Mus musculus with 6 samples.

Results

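The PARP family of ADP-ribosyltransferases was described here through 10 genes, chosen by their symbols in the first column of a table that lists 55453 genes. Of the 10 genes, 7 were listed as interferon-linked (Parp9, Dtx3l, Parp14, Parp10, Parp11, Parp12 and Zc3hav1) and 3 as other members (Parp1, Parp2 and Parp8). This grouping was not tested here. All 10 passed the filter on low counts that left 13680 genes for testing, with 1037 to 78955 reads per gene and library. The RNA-Seq data came from bone marrow-derived macrophages (BMDM), which are grown from marrow cells in the presence of M-CSF, of C57BL/6 mice. The PP2Ac KO group had 3 libraries, labelled PP2A KO, and the PP2Ac WT group had 3, labelled Wild Type. By the study's methods the KO cells come from LysMcrePP2Acfl/fl mice, in which cre under the Lysozyme 2 promoter removes exon 1 of Ppp2ca, the gene of a PP2A catalytic subunit, in myeloid cells. The WT mice were bought C57BL/6 animals and are not described as carrying cre or the floxed allele, so that cre and genotype cannot be told apart. The labels give no treatment, age or sex. The study describes cGAMP, an agonist of the innate immune sensor STING, for all of the BMDM it sequenced, and no untreated library was used here, so that every value below is taken to be from stimulated cells.

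PARP enzymes transfer ADP-ribose from NAD onto proteins and nucleic acids. A few, such as PARP1 and PARP2, build long poly(ADP-ribose) chains at broken DNA, whereas most of the others attach a single ADP-ribose unit or have lost the catalytic activity. Several of the latter are known interferon-stimulated genes with antiviral roles in macrophages, among them PARP9 with its partner DTX3L, an E3 ubiquitin ligase, and ZAP, the product of Zc3hav1, which binds CpG-rich viral RNA.

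Libraries held 35257156 to 47390899 counts. Ppp2ca had 33 to 47 reads in the KO libraries and 8279 to 10654 in the WT libraries, which fits the labels. The macrophage markers listed (Adgre1, Csf1r, Cd68, Itgam, Mertk and Fcgr1) were all present, with summed levels of 7286 to 7474 CPM (counts relative to the library total, scaled by the TMM method) in KO and 6162 to 6794 CPM in WT. Fcgr1 and Mertk rose in KO, with log2 fold changes of 0.70 and 0.27, and the other 4 were not called. The 6 T and NK cell markers had at most 5 counts in any library, with Cd8a at 0. Of 6 neutrophil and precursor markers, Ly6g was at 0 and S100a8, the 1 that was tested, had 25 to 37 counts per library and was not called. Of 4 B cell markers, 1 was tested and was not called. Of 5 dendritic cell markers, 3 were tested and 1 rose. This was Siglech, at 0.599 CPM in KO and 0.301 CPM in WT. Of all genes tested, 18.1% rose and 19.0% fell in KO at an FDR under 0.05. Of 7 fibroblast markers, 6 were tested and all 6 fell in KO, with summed levels of 24.9 to 37.4 CPM in KO and 80.8 to 125 CPM in WT. Of 8 markers of proliferating cells, 7 fell, and none of the 8 was at 0. The summed levels of all 8 were 279 to 294 CPM in KO and 351 to 420.3 CPM in WT. Most of these sums came from Pcna, at 202 CPM in KO and 224 CPM in WT. Pcna was the marker of proliferating cells that was not called (log2 fold change -0.15, edgeR adjusted p = 0.161). The part of these cells in the results below was not tested. In such bulk libraries, fewer cells of a type and less RNA per cell cannot be told apart.

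The interferon-linked members rose together in PP2Ac KO BMDM. All 7 had higher expression at an FDR under 0.05 by edgeR's quasi-likelihood test, with log2 fold changes from 0.47 to 1.29 and a median of 0.80, where the median over all 13680 genes tested was -0.02. Of the 3 other members, Parp8 rose, Parp1 fell and Parp2 did not pass the test. In all, 8 of the 10 members rose and 1 fell, whereas of all genes tested 37.1% were called, 18.1% higher and 19.0% lower. The 3 libraries of each genotype did not overlap for any of the 10 members, with KO higher in 9 and lower in 1. This also held for 50.9% of all genes tested, with KO higher in 24.0% and lower in 26.8%. Parp10, Parp11 and Parp12 also passed the thresholds the study used for upregulated genes (log2 fold change over 1 and FDR under 0.01), as did 3.36% of the genes tested. No member passed the mirrored thresholds for lower genes, which 2.99% of the genes tested did. That count of 3 was 1, with Parp11 left, under upper-quartile scaling, without KO replicate 1 and without WT replicate 3, since Parp10 and Parp12 lay close to the limit at 1.03 and 1.01.

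**Figure D1:**
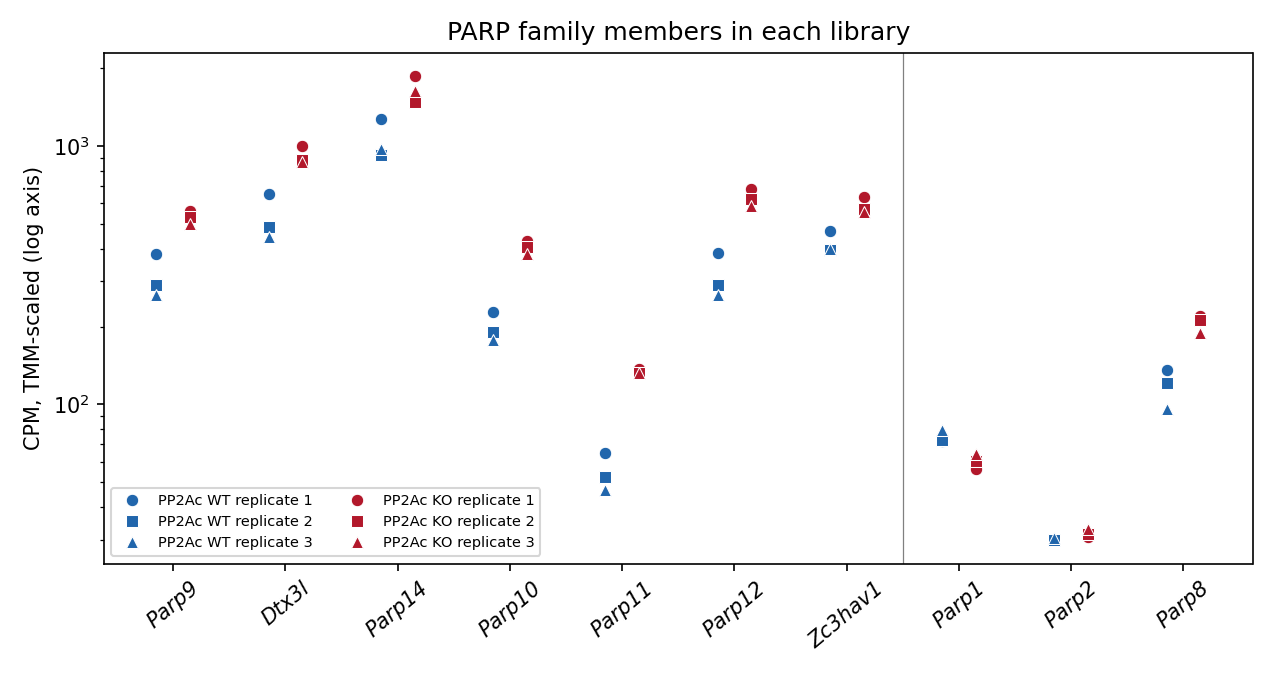
Expression of the 10 members in TMM-scaled CPM on a log axis, for 3 PP2Ac WT (blue) and 3 PP2Ac KO libraries (red), with the replicate number given by the symbol and a vertical line between interferon-linked and other members. For 9 members every red point lies above every blue point, and for Parp1 the order is the opposite.

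Parp9 and Dtx3l are neighbors on chromosome 16 that point away from each other. In the GENCODE M21 annotation of GRCm38 (mm10), Parp9 (ENSMUSG00000022906.15) runs from 35938470 to 35972605 on the forward strand and Dtx3l (ENSMUSG00000049502.17) from 35926511 to 35939151 on the reverse strand, so that they overlap by 682 bp at their 5′ ends. Parp9 encodes a macrodomain protein with little or no transferase activity of its own, and Dtx3l the ubiquitin ligase bound to it. Parp9 had 559, 529.5 and 499.9 CPM in the KO libraries and 380.4, 289 and 266 CPM in the WT libraries. Dtx3l had 999.7, 884 and 869 CPM in KO and 653, 488 and 446 CPM in WT. In both genes the highest WT library, replicate 1, stayed below the lowest KO library, and WT libraries were spread more widely than KO libraries. Parp9 averaged 312 ± 60.7 CPM in WT and 529.4 ± 29.5 CPM in KO (SD, n = 3) and rose, with a log2 difference of 0.76 (SE 0.12, edgeR adjusted p = 0.00139). Dtx3l averaged 529 ± 109.2 CPM in WT and 918 ± 71.3 CPM in KO (SD, n = 3) and rose, with a log2 difference of 0.80 (SE 0.13, edgeR adjusted p = 0.00163).

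The balance of the pair was also compared. Per kb of exon, the ratio of Parp9 to Dtx3l was 0.902, 0.966 and 0.928 in the KO libraries and 0.941, 0.956 and 0.960 in the WT libraries. The groups overlap, and the means were 0.932 ± 0.0323 and 0.952 ± 0.0104 (SD, n = 3; exact permutation test, two-sided p = 0.4, adjusted over 3 such ratios 0.4). With 3 libraries against 3 this test cannot give a p-value under 0.1. Exons of the genes share 458 bp on opposite strands, which is 9.40% of the exon bases of Parp9 and 8% of those of Dtx3l. The library kit marks strand, but the strand setting of the counting was not given in the sources used here, and without it reads from these bases cannot be assigned to either gene.

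Parp14, which had the highest mean level per length in both genotypes, lies on the reverse strand of chromosome 16 from 35832874 to 35871544, with a gap of 54966 bp to Dtx3l. It encodes a large macrodomain protein that attaches single ADP-ribose units. Parp14 had 1861, 1481 and 1635 CPM in the KO libraries and 1277, 923 and 977 CPM in the WT libraries. The highest WT library lay below the lowest KO library. It averaged 1059 ± 190.5 CPM in WT and 1659 ± 191 CPM in KO (SD, n = 3) and rose, with a log2 difference of 0.65 (SE 0.13, edgeR adjusted p = 0.00435). The ratio of Parp14 to Dtx3l per kb was 1.39 ± 0.0876 in KO and 1.55 ± 0.120 in WT (SD, n = 3). Every KO library lay below every WT library (exact permutation p = 0.1, the smallest this test can give, and 0.15 adjusted over the 3 ratios). The genotypes were apart only just, with 1.45 in KO replicate 3 and 1.46 in WT replicate 2.

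The nearest genes on either side were then examined. Within 100 kb on either side of the group, 15 genes are annotated and 11 were tested, of which 8 are not members. This window was chosen after the values were seen. At an FDR under 0.05, 18.1% of all genes tested rose and 19.0% fell. Of the 8 neighbors, 2 rose and 0 fell at that threshold. Those that rose were Gm49730, which lies inside Parp14 on the same strand and shares 110 bp of exon with it (log2 fold change 0.64, edgeR adjusted p = 0.0363), and Gm15564, an antisense RNA gene that begins inside Kpna1 and ends inside Parp9 (0.58, edgeR adjusted p = 0.00400). Reads from the exon bases shared by Gm49730 and Parp14 could not be told apart here, whereas Gm15564 shares no exon bases with a member. Gm49728, a pseudogene counted at under 1 CPM, had a log2 fold change of 0.71 (edgeR adjusted p = 0.227). The protein-coding neighbors on the Parp9 side (Kpna1, Wdr5b, Fam162a and Ccdc58) had log2 fold changes of -0.08, -0.38, -0.16 and -0.22, and none of them passed the test (edgeR adjusted p = 0.441, 0.107, 0.212 and 0.192), although Wdr5b did with the replicate number as a block (0.0234). Hspbap1, on the Parp14 side, had a log2 fold change of 0.05 (edgeR adjusted p = 0.774).

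**Figure D2:**
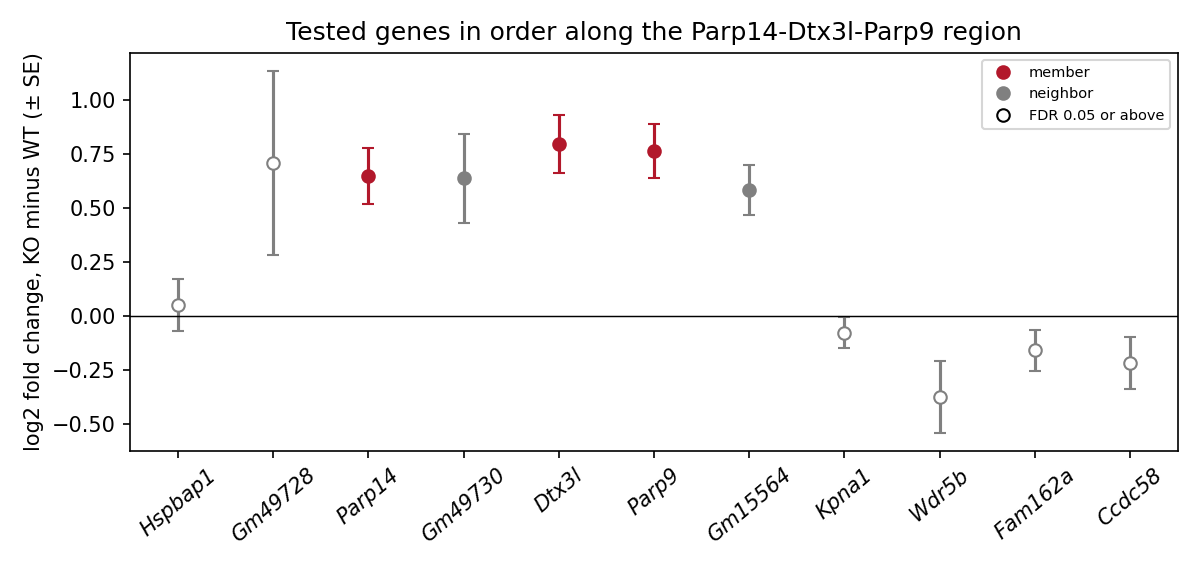
Log2 fold change (PP2Ac KO minus PP2Ac WT, with standard error) of the 11 tested genes in their order along chromosome 16 around Parp14, Dtx3l and Parp9. The members (red) lie between 0.65 and 0.80, the neighbors called higher at 0.58 and 0.64, Gm49728 at 0.71 with a wide error, and the protein-coding neighbors at 0.05 or below, with open symbols for an FDR of 0.05 or above.

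Parp11 had the largest change of all members. It encodes a small enzyme with a WWE domain, a fold that binds ADP-ribose units, which attaches single ADP-ribose units. It spans chromosome 6, 127446840 to 127494261, forward strand. Parp11 had 137, 132 and 133 CPM in the KO libraries and 64.7, 52.6 and 46.8 CPM in the WT libraries. The KO libraries had a coefficient of variation of 1.76%, and each was over every WT library by a wide margin. It averaged 54.7 ± 9.12 CPM in WT and 133.8 ± 2.36 CPM in KO (SD, n = 3) and rose, with a log2 difference of 1.29 (SE 0.11, 95% interval 1.05 to 1.53, edgeR adjusted p = 6.91e-05).

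Parp11 has more than 1 annotated start. RefSeq gives promoter windows of 300 bases, 250 before a transcript start and 50 after it, for starts at 127446840 and 127453627, which are 6787 bp apart. Their sequences are shown because the windows differ in letters that interferon-activated factors are known to bind. Windows were searched on both strands for the core of the interferon-stimulated response element (ISRE, GAAA and again GAAA with 2 bases of any kind between them). The stretches below, from build GRCm38.p6 and the forward strand, hold the bases from 120 to 11 before each start, and capitals mark the match.
Parp11 upstream start, chr6:127446720-127446829: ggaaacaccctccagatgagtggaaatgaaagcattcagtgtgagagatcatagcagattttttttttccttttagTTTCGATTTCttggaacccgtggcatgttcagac
Parp11 downstream start, chr6:127453507-127453616: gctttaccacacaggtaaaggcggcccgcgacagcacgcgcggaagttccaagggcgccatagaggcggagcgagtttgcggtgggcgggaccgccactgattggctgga
The upstream window holds the ISRE core on its reverse strand (TTTCGATTTC as written, bases -44 to -35 from the start). The downstream window, whose start lies close to that of the principal transcript in GENCODE at 127453723, does not hold it. The upstream window had 42% G and C and the downstream window 59%, with a median of 52.7% over all windows. Counts per gene do not tell the starts apart.

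RefSeq windows were matched for 7 of the 10 members, with 8 windows in all; Parp9, Parp10 and Parp14 were not matched. No window of Dtx3l, Parp12, Zc3hav1, Parp1, Parp2 or Parp8 held these letters. The Zc3hav1 window lies around a start at 38354603. It does not cover the start of the principal Zc3hav1 transcript in GENCODE, at 38354273, which was therefore not searched. The ISRE core occurred in 3.44% of all 32851 promoter windows. A match here describes the sequence and was not tested as a binding site.

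Parp10 and Parp12 changed by nearly the same factor. Parp10, on chromosome 15 from 76231174 to 76243441 on the reverse strand, encodes an enzyme that attaches single ADP-ribose units. It had 431, 408 and 382 CPM in the KO libraries and 228, 190.5 and 178 CPM in the WT libraries. The lowest KO library was well over the highest WT library. Parp10 averaged 199 ± 26.4 CPM in WT and 407 ± 24.3 CPM in KO (SD, n = 3) and rose, with a log2 difference of 1.03 (SE 0.10, edgeR adjusted p = 1.27e-04). Its exons share 205 bp with Plec on the same strand, 4.80% of its exon bases, and reads from these bases could have been counted on either gene or left out.

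Parp12 encodes a transferase with zinc fingers of the CCCH type, as ZAP does. It lies on the reverse strand of chromosome 6 from 39086410 to 39118349, with 731806 bp between it and Zc3hav1. It had 682, 622 and 585 CPM in the KO libraries and 386, 289 and 265 CPM in the WT libraries. The genotypes were apart by more than the spread within either. Parp12 averaged 313 ± 64.1 CPM in WT and 629.6 ± 49.1 CPM in KO (SD, n = 3) and rose, with a log2 difference of 1.01 (SE 0.13, edgeR adjusted p = 4.90e-04).

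Zc3hav1 had the smallest rise among the interferon-linked members. Its product ZAP has a catalytic domain without activity, and its transcripts differ in whether they include that domain. It lies on the reverse strand of chromosome 6 from 38305286 to 38354603 with 4 annotated transcripts, all coding, which counts per gene do not tell apart. Zc3hav1 had 633, 572 and 554 CPM in the KO libraries and 471, 397 and 399 CPM in the WT libraries. Again no WT library reached the lowest KO library. It averaged 422 ± 42.1 CPM in WT and 586 ± 41.7 CPM in KO (SD, n = 3) and rose, with a log2 difference of 0.47 (SE 0.09, 95% interval 0.27 to 0.68, edgeR adjusted p = 0.00293). This interval does not meet that of Parp11. The ratio of Parp11 to Zc3hav1 per kb was 0.301 ± 0.0160 in KO and 0.170 ± 0.0137 in WT (SD, n = 3; exact permutation p = 0.1, the smallest possible, and 0.15 adjusted over the 3 ratios).

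**Figure D3:**
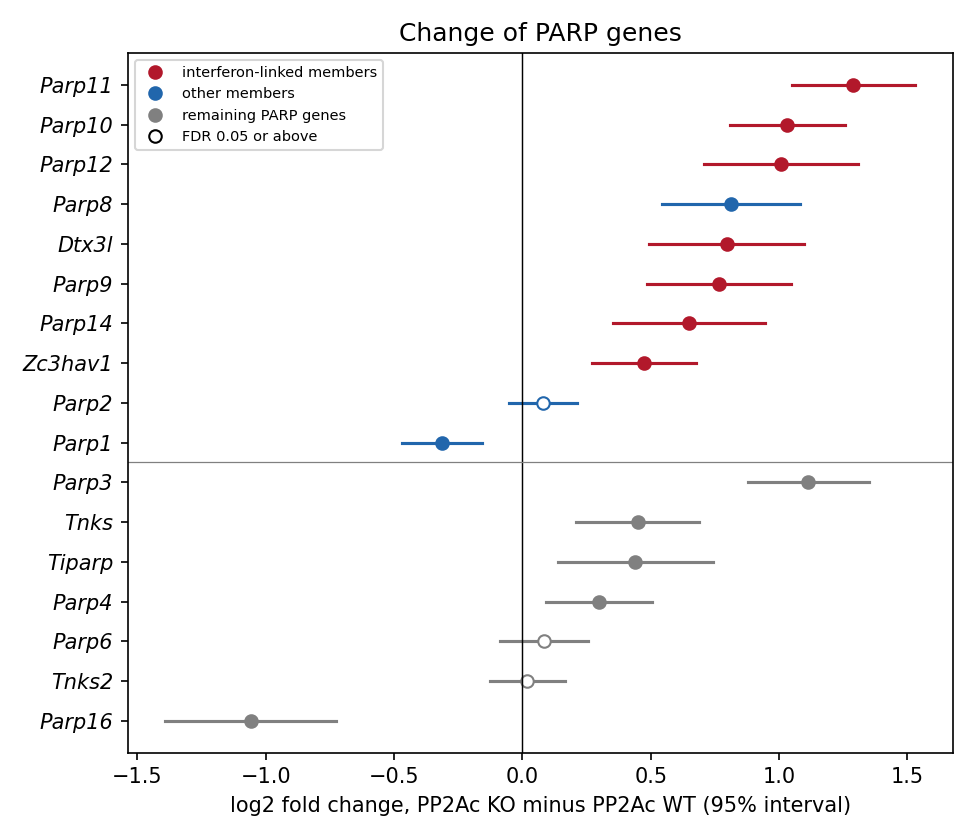
Log2 fold change (PP2Ac KO minus PP2Ac WT) for the 10 members (above the line) and the 7 remaining PARP genes of mouse that were listed (below the line). Bars are 95% intervals approximated from the edgeR fit, and open symbols have an FDR of 0.05 or above. Interferon-linked members (red) lie between 0.47 and 1.29, Parp1 at -0.31, and the remaining genes between -1.06 and 1.11.

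Parp1 was the member that fell. It encodes the main sensor of DNA strand breaks and makes most of the poly(ADP-ribose) of the cell. Its position is chromosome 1, 180568924 to 180601254, forward strand. It had 56.1, 60.6 and 64 CPM in the KO libraries and 72.3, 72.9 and 79.5 CPM in the WT libraries. The highest KO library lay below the lowest WT library. Parp1 averaged 74.9 ± 3.999 CPM in WT and 60.3 ± 3.97 CPM in KO (SD, n = 3) and fell, with a log2 difference of -0.31 (SE 0.07, edgeR adjusted p = 0.00678). Of the 8 markers of proliferating cells, 7 fell in the same libraries, with log2 fold changes of -0.98 for Mki67 and -2.05 for Rrm2. Pcna was not called (-0.15), and the median over the 8 genes was -0.80. The part of proliferating cells in the value for Parp1 was not tested.

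Parp2, which encodes another polymerase activated by DNA breaks, did not pass the test. It spans chromosome 14, 50807841 to 50821301, forward strand, and had 30.7, 31.4 and 32.9 CPM in the KO libraries and 29.8, 29.8 and 30.4 CPM in the WT libraries. The genotypes did not overlap, but only just, and they did overlap under upper-quartile scaling. Its log2 difference was 0.08 (SE 0.06, edgeR adjusted p = 0.317), with a 95% interval from -0.05 to 0.21.

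Parp8, a less studied enzyme that attaches single ADP-ribose units, moved like the interferon-linked members. It spans 170718 bp of chromosome 13, from 116854820 to 117025537 on the reverse strand. Parp8 had 220.1, 212 and 188 CPM in the KO libraries and 136, 121 and 96.3 CPM in the WT libraries. Every KO library was over every WT library. It averaged 118 ± 20.02 CPM in WT and 207 ± 16.5 CPM in KO (SD, n = 3) and rose, with a log2 difference of 0.81 (SE 0.12, edgeR adjusted p = 8.33e-04).

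Levels of different genes were compared per kb of exon, using the merged exons of the transcripts in the GENCODE basic set. In the WT libraries Parp14 was highest with 143 ± 25.7 CPM per kb, followed by Parp12 (96.9 ± 19.9), Dtx3l (92.4 ± 19.1), Parp9 (87.8 ± 17.1), Zc3hav1 (64.8 ± 6.45), Parp10 (58.7 ± 7.79), Parp8 (36.9 ± 6.29), Parp1 (19.3 ± 1.03), Parp2 (15.8 ± 0.182) and Parp11 (11.03 ± 1.84) (SD, n = 3). The WT libraries overlapped between Parp12 and Dtx3l, between Dtx3l and Parp9, and between Zc3hav1 and Parp10, so that the order within these pairs was not set apart from the spread. In the KO libraries Parp14 (224 ± 25.7 CPM per kb) and Parp12 (195 ± 15.2) overlapped, as did Dtx3l (160.3 ± 12.5) and Parp9 (149 ± 8.31). Parp10, at 120.1 ± 7.16 CPM per kb, was then over Zc3hav1, at 89.9 ± 6.39. Parp11, which had the lowest level of the 10 in WT, reached 27.0 ± 0.475 CPM per kb in KO, above Parp2 (16.7 ± 0.592) and Parp1 (15.6 ± 1.02), whose libraries overlapped. With the length of the principal transcript in place of the merged exons, Dtx3l and Parp12 changed places in WT and the rest of the order stayed as given.

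**Figure D4:**
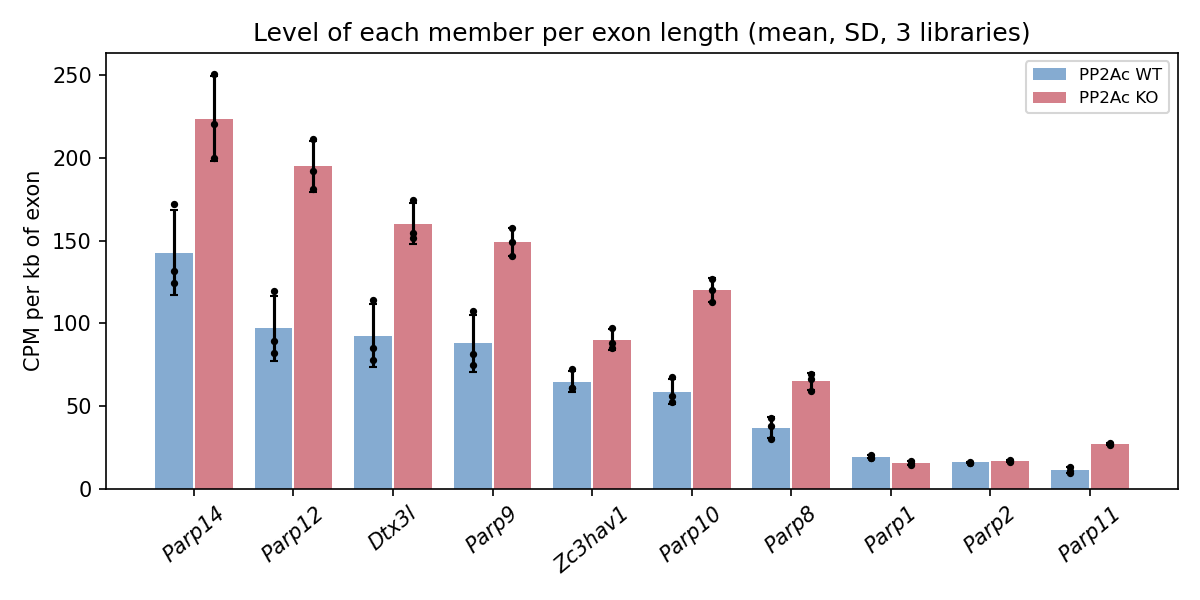
Mean level of each member in CPM per kb of exon in PP2Ac WT (blue) and PP2Ac KO (red), with the standard deviation as error bars and the 3 libraries as points, ordered by the WT level. Parp14 is highest in both genotypes, at 143 and 224 CPM per kb, and Parp11 is lowest in WT only, at 11.03 against 27.0 CPM per kb in KO.

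Libraries of 1 genotype differed in a shared way. Replicate 1 was the highest of its genotype for 7 of the 7 interferon-linked members, in KO and in WT alike. Relative to the mean log2 CPM of their genotype, these members were higher by 0.03 to 0.17 in KO replicate 1 and by 0.16 to 0.32 in WT replicate 1. WT replicate 3 was the lowest WT library for 5 of the 7, and KO replicate 3 the lowest KO library for 5 of the 7. Ifnb1, the gene of interferon-β, was likewise highest in replicate 1 of both genotypes, with 19.2 CPM in KO and 8.86 CPM in WT, and lowest in WT replicate 3 with 4.32 CPM and, unlike most of these members, in KO replicate 2 with 13.1 CPM. Parp8, which is not among the interferon-linked members, was also highest in replicate 1 and lowest in replicate 3 of both genotypes. Parp1 ran the other way, with its lowest value of each genotype in replicate 1. How many of all genes tested share these orders was not examined. The coefficient of variation of the interferon-linked members was 1.76% to 11.5% over the KO libraries and 9.97% to 20.6% over the WT libraries. What the replicate numbers share is not given by the labels, and nothing there says that libraries came from separate mice, so p-values measure the spread between these libraries, which may be technical.

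**Figure D5:**
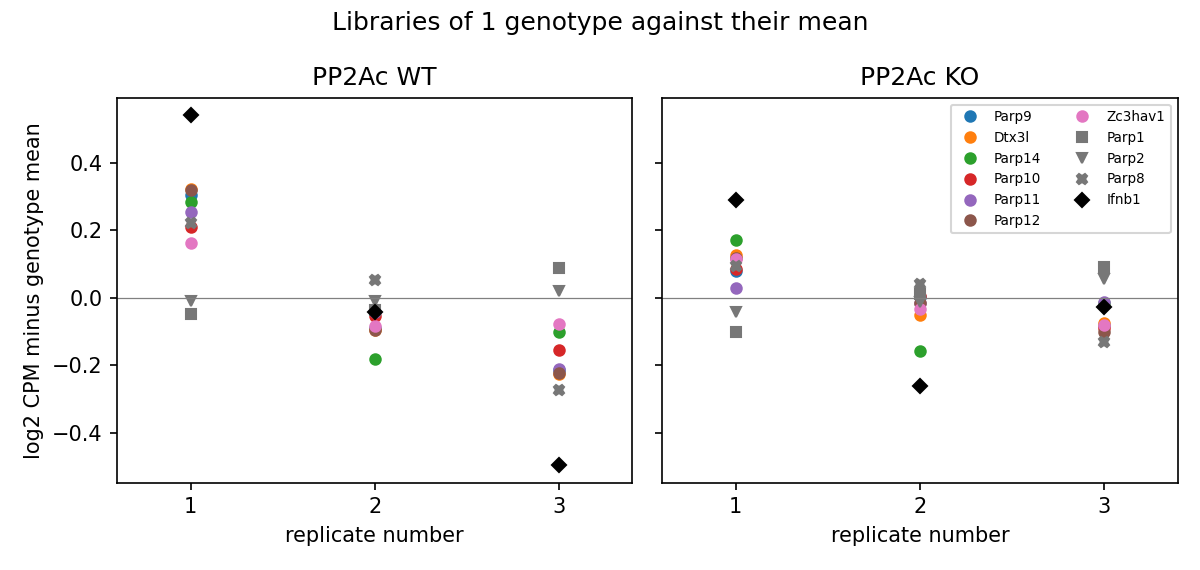
Log2 CPM of each library minus the mean of its genotype, by replicate number, for the interferon-linked members (colored circles), Parp1, Parp2 and Parp8 (grey) and Ifnb1 (black diamonds). In replicate 1 of both genotypes all 7 interferon-linked members and Ifnb1 lie above 0, by up to 0.17 and 0.29 in KO and up to 0.32 and 0.54 in WT. Parp8 also lies above 0 in replicate 1, by 0.09 in KO and 0.22 in WT.

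Within same-numbered pairs, KO was over WT for the 7 interferon-linked members in 3 of 3 pairs. Any pairing would give this, since the KO and WT libraries of these members did not overlap. The log2 ratio of Parp11 was 1.08, 1.33 and 1.502 in pairs 1, 2 and 3, and that of Zc3hav1 was 0.43, 0.53 and 0.47. In 6 of these 7 members pair 1 gave the smallest and pair 3 the largest ratio, with Zc3hav1 as the exception, whose largest ratio was in pair 2. With the replicate number as a block in the fit, the same 8 members rose and Parp1 fell (edgeR), where 50.9% of all genes tested were called, 24.4% higher and 26.4% lower.

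The genes with the profile most like that of Parp9 over the 6 libraries were found by the root mean square difference between log2 CPM profiles, each centered on its own mean. They were Ifi204, Stxbp3, Azi2, Exoc6 and Usp15, with differences of 0.021 to 0.029. Dtx3l was 11th of 13679 genes compared, at 0.034, and Parp14 was 347th, at 0.117. The profiles closest to Parp14 were those of Dock10, Gm8995, Dcp2, Dock11 and Xrn1, with differences of 0.039 to 0.045, while Dtx3l and Parp9 were 211th and 241st. The profiles were not scaled, so the measure also reflects how far a gene changed between genotypes. The 5 genes closest to Parp9 had log2 fold changes of 0.75 to 0.79, and those closest to Parp14 had 0.59 to 0.66. These ranks describe likeness in 6 libraries of 2 genotypes and say nothing of shared control.

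The remaining PARP genes of mouse moved in both directions. Of 7 listed and tested, 4 rose, 1 fell and 2 did not pass the test, with a median log2 fold change of 0.30, where 18.1% of all genes tested rose and 19.0% fell. Parp3, which encodes a transferase active at DNA breaks, averaged 39.1 ± 5.30 CPM in WT and 84.7 ± 8.06 CPM in KO (SD, n = 3), with a log2 difference of 1.11 (edgeR adjusted p = 1.16e-04). Tnks, the gene of a tankyrase, rose by 0.45 and Tiparp, also called Parp7, by 0.44 on the log2 scale (edgeR adjusted p = 0.00930 and 0.0289). The fourth gene to rise, Parp4, had a log2 fold change of 0.30 (edgeR adjusted p = 0.0298). Parp16, whose product sits in the membrane of the endoplasmic reticulum, averaged 4.09 ± 0.525 CPM in WT and 1.95 ± 0.171 CPM in KO (SD, n = 3), with a log2 difference of -1.06 (edgeR adjusted p = 6.35e-04).

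Genes that supply or use NAD, the donor of ADP-ribose, were called about as often as all genes tested (37.1%). Of 12 listed, 10 were tested, of which 2 rose, 2 fell and 6 did not pass the test, with a median log2 fold change of -0.04. Nampt, the rate-limiting enzyme of NAD salvage, had 776, 710.0 and 717 CPM in the KO libraries and 532, 390 and 366 CPM in the WT libraries. No WT library reached the lowest KO library. Nampt thus rose by 0.77 in log2 terms (SE 0.13, edgeR adjusted p = 0.00164). Sirt1, a deacetylase that consumes NAD, rose by 0.57 on the log2 scale, whereas Nmrk1 and Nmnat3, which make NAD precursors and NAD, had log2 fold changes of -0.35 and -0.35 (edgeR adjusted p = 0.00479, 0.0362 and 0.0348). Cd38, which encodes an NAD-consuming ectoenzyme, and Qprt were not tested, with at most 13 counts in any library.

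Of 8 tested enzymes that remove ADP-ribose, 1 rose and 1 fell, while the fit blocked on replicate number gave 1 higher and 2 lower, where 37.1% of all genes were called, and 50.9% with the block. Adprh, which removes ADP-ribose from arginine, rose by 0.19 on the log2 scale, and Macrod2, a macrodomain hydrolase counted at under 1 CPM, had a log2 fold change of -0.73 (edgeR adjusted p = 0.0320 and 0.0448). Among 11 genes whose products read poly(ADP-ribose) or work with PARP1 in repair, 2 rose and 2 fell, a share near that of all genes (37.1%). With the block 2 rose and 6 fell, where 24.4% of all genes rose and 26.4% fell. Polb, a repair polymerase, and H2afy, the gene of a histone with a macrodomain, rose by 0.55 and 0.31 on the log2 scale (edgeR adjusted p = 0.00102 and 0.00421). Aplf and Chfr, whose products bind poly(ADP-ribose), had log2 fold changes of -0.83 and -0.20 (edgeR adjusted p = 0.00294 and 0.0227).

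Of 5 genes for cofactors of ZAP, Khnyn, which encodes an endonuclease, rose by 0.35 on the log2 scale (edgeR adjusted p = 0.0154). The other 4 did not pass the test, where 37.1% of all genes tested were called. With the replicate number as a block 4 of the 5 genes rose, where 24.4% of all genes tested rose and 26.4% fell. Of 3 tested relatives of Dtx3l in the Deltex family, Dtx4 had a log2 fold change of -0.70 (edgeR adjusted p = 7.41e-05) and the other two did not pass the test. Of these 3, 2 rose and 1 fell with the block, where 50.9% of all genes tested were called. Among 8 factors of interferon signaling, 7 rose and 0 fell, with a median log2 fold change of 0.65, where 18.1% of all genes tested rose and 19.0% fell. Irf7 and Ifnb1 had log2 fold changes of 1.53 and 1.32, and Stat2 of 0.65 (edgeR adjusted p = 9.07e-05, 0.00200 and 7.62e-04).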

How the data were processed

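Poly(A)-enriched, directional paired-end RNA-Seq libraries were made from BMDM of PP2Ac KO and WT mice. The authors deposited raw counts of reads per gene as whole numbers, 1 column per library. The submitters' processing notes name fastp 0.20.0, kallisto 0.46.1, STAR 2.7.1a, HTSeq 0.11.2, edgeR 3.34.0 and limma 3.48.3 with the build mm10/GRCm38. The strand setting and the annotation release were not given in the sources used here.

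Genes were kept by filterByExpr (minimum count 10, minimum total 15), scaled with TMM factors and compared by the quasi-likelihood test of edgeR 4.0.16 (glmQLFit, glmQLFTest; R 4.3.3), with Benjamini-Hochberg adjustment over 13680 genes. Standard errors were approximated as the size of the log2 fold change over the root of F, and the intervals were built from these standard errors. A depth of 35257156 to 47390899 counts put 3 counts at 0.0604 to 0.0909 CPM. Such floors cover counting error only. Alternatives were other scalings and filters, the replicate number as a block, DESeq2 1.42.0, limma-voom 3.58.1 and leaving out each library. On simulated data for KO against WT with 13536 genes tested, edgeR recovered 177 of 197 genes changed by 1 on the log2 scale, with 10 false calls. The simulation changed far fewer genes than the 37.1% called in the data and held no effect shared by replicate number. Its rates therefore need not hold for these data.

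Replicate numbers come from the sample titles. Deviations of same-numbered KO and WT libraries from their group means correlated at 0.27, 0.13 and 0.32 over genes. Those of differently numbered libraries correlated at -0.24 to -0.02, where centering within each group of 3 libraries itself draws values down. The numbers were taken to pair the libraries for the same-numbered ratios and the block. The main fit held genotype alone, so its p-values are unpaired. The members, lists and tests were chosen with earlier results of these data known. From each list other than the members, up to 4 genes with the largest absolute log2 fold change at an FDR under 0.05 were named, except for an item that is not reported here. Parp4, the neighbors on chromosome 16 and the markers in the text fall outside that rule and were named after their values were seen.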

Additional observations from a re-analysis of the deposited data

How the results depend on the processing

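Counting 9 members called, 8 higher and 1 lower, held under all 13 alternatives, and no member changed direction or its side of the FDR threshold. The count of members past the study's thresholds was 3 and became 1 (Parp11) with upper-quartile scaling, where Parp10 and Parp12 had log2 fold changes of 0.97 and 0.95. It ranged from 1 to 3 when libraries were left out one at a time, and was 1 without KO replicate 1 (0.98 and 0.94) and without WT replicate 3 (0.96 and 0.90). Members whose libraries did not overlap numbered 10, or 9 with upper-quartile scaling. The adjusted p of Parp2 ranged from 0.177 to 0.865. With the replicate number as a block, calls rose from 4 to 8 among readers of poly(ADP-ribose), from 1 to 4 among cofactors of ZAP and from 1 to 3 in the Deltex family, and the block changed no call among the members. Calls over all genes tested rose with the block too, from 5074 to 6958 (37.1% to 50.9%). Over all genes, 2470 were called higher and 2604 lower, against 2095 and 3356 with upper-quartile scaling. The cause was not tested. With 3 libraries per genotype, no single-value permutation test could give a p under 0.1.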
